A study of Homo sapiens with 6 samples.

Results

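The HOX genes of the HOXA, HOXB, HOXC and HOXD clusters were examined in K562 cells, an established erythroid leukaemia line derived from chronic myeloid leukaemia. Every probe set whose single annotated symbol was HOXA, HOXB, HOXC or HOXD followed only by a number was taken, and antisense transcripts were left out. This gave 44 probe sets for 28 genes, of 41091 probe sets for 19775 genes with a single annotated symbol. They were 1 HOXA gene with 1 probe set, 10 HOXB genes with 19, 9 HOXC genes with 9 and 8 HOXD genes with 15. HOX genes whose probe sets carried no such single symbol were not analysed here. All 28 were found in RefSeq by gene identifier, and the clusters lie on chromosome 7 (HOXA), 17 (HOXB), 12 (HOXC) and 2 (HOXD).

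HOX genes encode homeodomain transcription factors that give cells their position along the head to tail axis. Within a cluster they stand in the order in which they are used along that axis, and low-numbered genes are known to respond first and most strongly to retinoic acid. In blood, HOX genes are active in stem and progenitor cells and decline as cells mature, and their overexpression is a feature of many acute leukaemias. Their proteins bind DNA with TALE cofactors of the PBX and MEIS families, and their chromatin is opened by the KMT2A complex and silenced by Polycomb.

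Nucleofection brought in either a small interfering RNA (siRNA), which the labels call RNAi8 in a series about the retinoic acid receptor repressor PRAME, or a scrambled RNA as control, both at a maximum of 200 nM. Treatment with all-trans retinoic acid (ATRA), or with DMSO as the control, followed 24 hours later. There were 3 independent experiments, and each yielded 1 array per RNA, so that 3 siRNA arrays stood against 3 scrambled arrays. ATRA was given in experiments 1 and 3 (4 arrays) and DMSO in experiment 2 (2 arrays). All groups came from the same line, a long-established culture whose response to ATRA need not be that of primary blood cells. The treatment never varied within an experiment, so ATRA and experiment cannot be told apart.

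Values are log2 expression, and the number of arrays limits their precision. A probe set is called dim where its 6-array mean fell short of the overall probe set median (6.00), a level not shown to be above background. The median is no detection limit, and a level above it was not shown to exceed background either. A level is placed only against that distribution, since levels of different probe sets cannot be set against each other. In bulk RNA, fewer cells that use a gene and less of its RNA per cell cannot be told apart.

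The arrays were checked on genes outside the HOX clusters. PRAME measured 12.13, 12.14 and 12.10 with siRNA in experiments 1, 2 and 3, against 13.005, 12.99 and 12.70 with scrambled RNA, and the siRNA value was the lower one each time. CYP26A1, the enzyme that breaks down retinoic acid, measured between 11.21 and 12.21 under ATRA, against 5.72 and 5.75 under DMSO. Markers were read at the probe set with the highest mean of each gene, which raises counts at or above the median. All 8 measured markers of the erythroid leukaemia line lay at or above the median, as did 1 of 6 markers of T and NK lymphocytes, 1 of 3 of B lymphocytes, 2 of 4 of stroma and 2 of 3 of epithelium. Among those above it, the lymphocyte markers CD3E and CD79B averaged 6.00 and 6.70, and the epithelial marker KRT19 10.34. HOX probe sets near the median thus lay at levels that markers of other cell types also reached. Experiment 3 stood apart: its actin control was 2.98 and 3.36 brighter at the 3′ end than at the 5′ end, against 0.63 to 0.92 on the other 4 arrays. Its arrays correlated at 0.979 to 0.982 with the others, against at least 0.9965 among the other 4. Results that rest on experiment 3 are therefore given with and without it.

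Most of the HOX probe sets above the middle of the array's range belonged to the HOXB cluster. Of the 44 HOX probe sets, 22 for 19 genes lay at or above the median level, where 50% of all probe sets lie by construction. They were 12 of 19 in HOXB, 7 of 9 in HOXC, 3 of 15 in HOXD and 0 of 1 in HOXA. Only 7 lay in the upper quartile of all probe sets, at 7.44 or more, and 6 of these 7 were HOXB probe sets: HOXB2, HOXB3, HOXB4, 2 for HOXB7 and HOXB9. The seventh was HOXC6. By position in the cluster, 3 of 8 probe sets of groups 1 to 3, 12 of 17 of groups 4 to 8 and 7 of 19 of groups 9 to 13 lay at or above the median. HOXC8, with a mean of 6.0006, stood just inside the median, and the HOXB3 probe set 208414_s_at at 5.98 and the HOXD9 probe set 205605_at at 5.97 just outside it.

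**Figure D1:**
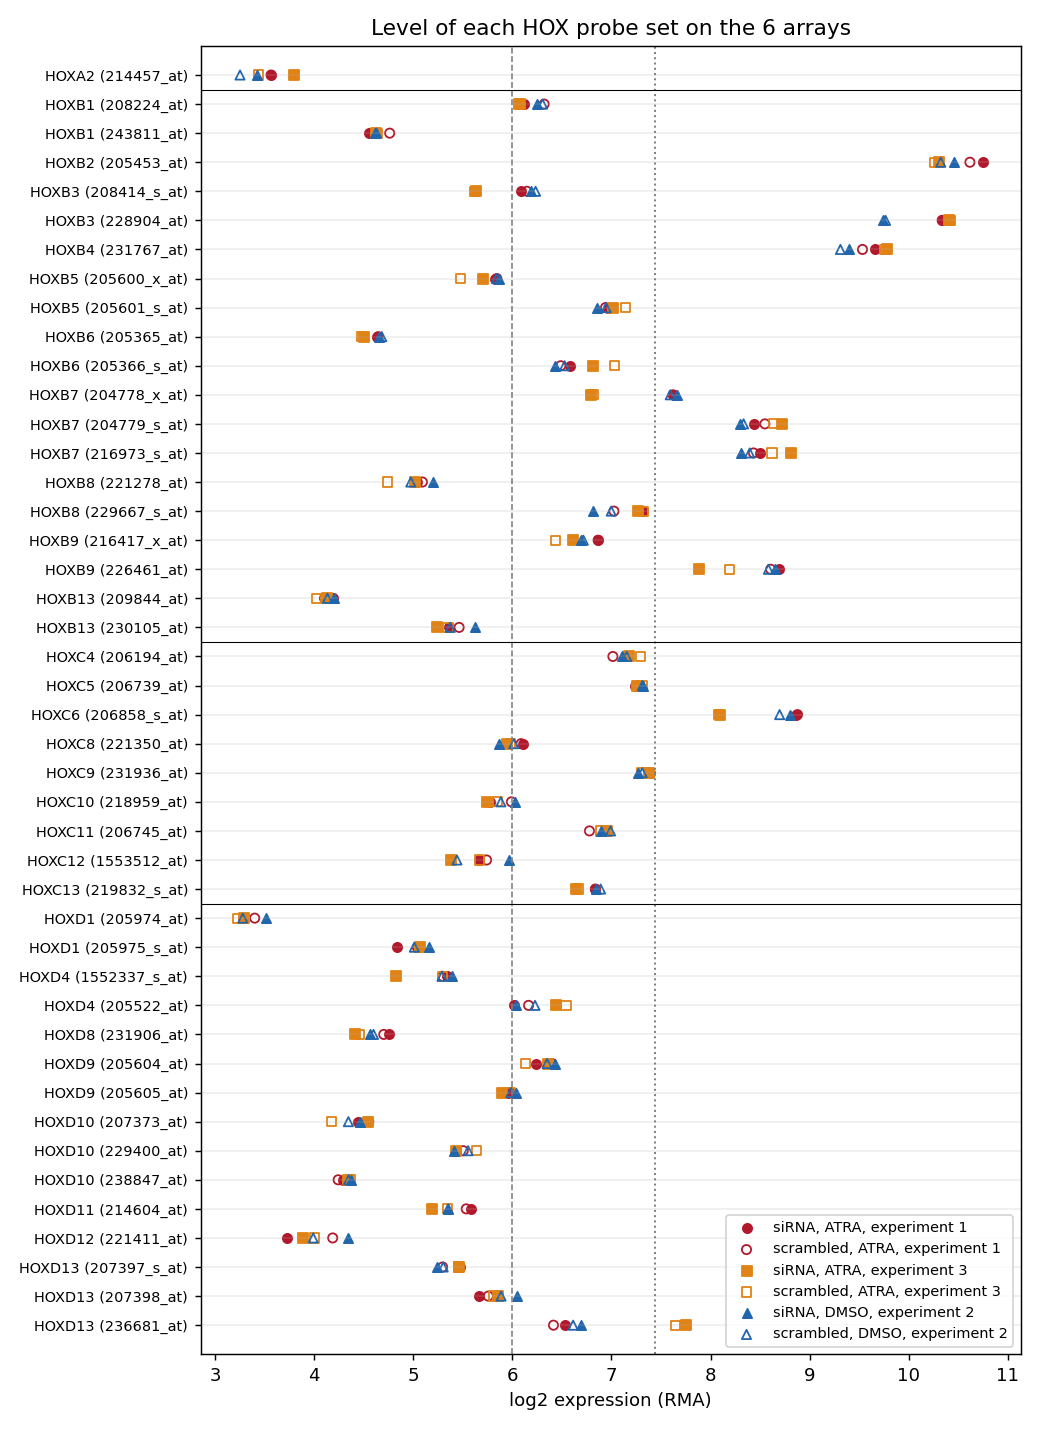
The plot shows log2 expression (x axis) of the 44 HOX probe sets (y axis, HOXA, HOXB, HOXC and HOXD from top to bottom) on each of the 6 arrays, 1 symbol per array. The dashed line is the median of all probe sets (6.00) and the dotted line their upper quartile (7.44). All symbols beyond 9 belong to HOXB2, HOXB3 and HOXB4.

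Among the genes at the low-numbered end, HOXB2, which patterns the hindbrain, read 10.75 (siRNA) and 10.62 (scrambled) in experiment 1 and 10.30 (siRNA) and 10.26 (scrambled) in experiment 3 under ATRA, against 10.46 (siRNA) and 10.32 (scrambled) under DMSO. The ATRA arrays stood on both sides of the DMSO arrays, above them in experiment 1 and below them in experiment 3. The difference was 0.29 from experiment 1 and -0.11 from experiment 3. HOXB1, which specifies a hindbrain segment and in mice is a direct retinoic acid target, had 1 probe set close to the median and another, 243811_at, that was dim, with a mean of 4.64. The first, 208224_at, read 6.12 (siRNA) and 6.32 (scrambled) in experiment 1 and 6.08 (siRNA) and 6.06 (scrambled) in experiment 3 under ATRA, against 6.25 (siRNA) and 6.30 (scrambled) under DMSO, and the groups overlapped. HOXA2, which patterns the second pharyngeal arch, was dim on every array.

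RefSeq start-site windows (GRCh38.p14, 250 bases before to 50 after the start) were matched for 11 of the 28 genes, among HOXB genes for HOXB1 alone, so the HOXB genes with higher ATRA readings were not searched. The motif TGATNNAT, the composite at which a PBX and a HOX protein bind side by side, was searched on both strands and occurred in 3 of the 11, those of HOXA2, HOXB1 and HOXD11, against 7.4% of 35116 windows. The homeodomain core TAAT, again on both strands, occurred in 9 of the 11 windows against 50.2% of all. These 11 windows are 10 distinct sequences, because HOXC4 and HOXC5 hold the same one and both count among the 9. The retinoid receptor half-site AGGTCA occurred in 0 of the 11 against 13.8% of all. TGATNNAT and TAAT can overlap, and a match is a description of these letters alone. The windows of HOXA2 (chr7:27102634-27102933, minus strand) and HOXB1 (chr17:48530962-48531261, minus strand) are shown because they hold the composite, in capitals. It lies on the opposite strand in HOXA2, and both genes belong to the retinoid-responsive end of their clusters. HOXC4 and HOXC5 have 1 window in common (chr12:54016638-54016937, plus strand), so they share an annotated start, and it is shown for that reason.
HOXA2: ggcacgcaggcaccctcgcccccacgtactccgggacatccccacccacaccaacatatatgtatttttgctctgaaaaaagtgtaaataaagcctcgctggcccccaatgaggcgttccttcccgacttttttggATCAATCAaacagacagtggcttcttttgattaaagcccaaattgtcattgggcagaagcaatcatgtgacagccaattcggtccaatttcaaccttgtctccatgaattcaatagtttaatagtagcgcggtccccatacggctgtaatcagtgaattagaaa
HOXB1: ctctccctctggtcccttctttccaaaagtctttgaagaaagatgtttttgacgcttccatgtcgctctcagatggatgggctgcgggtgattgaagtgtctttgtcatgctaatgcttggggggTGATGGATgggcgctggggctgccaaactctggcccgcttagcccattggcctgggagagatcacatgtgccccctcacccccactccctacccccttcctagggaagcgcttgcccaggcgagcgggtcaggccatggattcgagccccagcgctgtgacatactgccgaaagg
HOXC4 and HOXC5: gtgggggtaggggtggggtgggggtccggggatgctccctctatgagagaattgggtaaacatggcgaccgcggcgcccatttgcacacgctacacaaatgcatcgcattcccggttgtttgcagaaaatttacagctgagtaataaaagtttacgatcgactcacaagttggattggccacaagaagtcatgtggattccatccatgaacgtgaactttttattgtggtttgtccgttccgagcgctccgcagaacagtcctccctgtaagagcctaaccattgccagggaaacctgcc

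The first question was whether HOX genes differed between ATRA and DMSO. At or above the median, 5 probe sets, of HOXB3, HOXB4, HOXB7 and HOXB8, read higher on all 4 ATRA arrays than on both DMSO arrays. They did so by 0.24 to 0.62 on the log2 scale. They made up 22.7% of the HOX probe sets of that level, against 16.6% of all probe sets there. The dim HOXA2 was also higher on all ATRA arrays, by 0.25. Other probe sets of HOXB3, HOXB7 and HOXB8 averaged lower under ATRA (-0.34, -0.41 and -0.11). No HOX probe set passed the test over experiment means, 2 under ATRA against 1 under DMSO with 1 residual degree of freedom. In limma with Benjamini-Hochberg adjustment 0 of 44 were called, against a background of 0% of 54613 probe sets, and the smallest HOX adjusted p was 0.995. CYP26A1, with a difference of 5.94 ± 0.43 (SE), missed the same adjusted threshold (adjusted p = 0.995).

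HOXB3, which acts in haematopoietic progenitors, gave the widest gap. Its probe set 228904_at read 10.34 (siRNA) and 10.34 (scrambled) in experiment 1 and 10.41 (siRNA) and 10.42 (scrambled) in experiment 3 under ATRA, against 9.73 (siRNA) and 9.77 (scrambled) under DMSO. All ATRA arrays lay above both DMSO arrays, and the 4 ATRA values kept between 10.34 and 10.42. The difference was 0.62 ± 0.24 (SE; 95% interval -0.15 to 1.40; limma, unadjusted p = 0.0824), a ratio of 1.54. It was 0.59 from experiment 1 alone and 0.66 from experiment 3 alone. Experiment 1 against experiment 2, which leaves experiment 3 out, called HOXB3 (limma, adjusted p = 0.0346) as the only 1 of 44, against a background of 0.178%. That p rests on the spread between arrays of the same experiments, not between repeats of the treatment. Of all probe sets, 2.09% were higher on all ATRA arrays by 0.5 or more, and among the 44 HOX probe sets HOXB3 was the only 1.

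The other HOXB3 probe set, 208414_s_at, was dim and read differently. It gave 6.09 (siRNA) and 6.15 (scrambled) in experiment 1 and 5.63 (siRNA) and 5.62 (scrambled) in experiment 3 under ATRA, against 6.19 (siRNA) and 6.23 (scrambled) under DMSO. Here the ATRA arrays lay below the DMSO arrays, so the 2 probe sets of this gene disagree in direction. Its difference was -0.09 from experiment 1 and -0.59 from experiment 3.

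HOXB4, whose overexpression expands haematopoietic stem cells, read 9.66 (siRNA) and 9.53 (scrambled) in experiment 1 and 9.78 (siRNA) and 9.76 (scrambled) in experiment 3 under ATRA, against 9.40 (siRNA) and 9.31 (scrambled) under DMSO. The lowest ATRA array was above the highest DMSO array. The difference was 0.33 ± 0.26 (SE; limma, unadjusted p = 0.296), with 0.24 from experiment 1 and 0.42 from experiment 3.

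HOXB8, which blocks the maturation of mouse myeloid cells when overexpressed, read 7.31 (siRNA) and 7.02 (scrambled) in experiment 1 and 7.27 (siRNA) and 7.32 (scrambled) in experiment 3 under ATRA, against 6.81 (siRNA) and 7.00 (scrambled) under DMSO at its probe set 229667_s_at. The scrambled arrays of experiments 1 and 2 nearly touched. The difference was 0.33 ± 0.18 (SE; limma, unadjusted p = 0.171), with 0.26 from experiment 1 and 0.39 from experiment 3. The second HOXB8 probe set was dim and its groups overlapped.

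HOXB7, which is overexpressed in melanoma and breast cancer, had 3 probe sets at or above the median. Its probe set 204779_s_at read 8.44 (siRNA) and 8.55 (scrambled) in experiment 1 and 8.72 (siRNA) and 8.63 (scrambled) in experiment 3 under ATRA, against 8.30 (siRNA) and 8.33 (scrambled) under DMSO. Its probe set 216973_s_at read 8.50 (siRNA) and 8.43 (scrambled) in experiment 1 and 8.81 (siRNA) and 8.62 (scrambled) in experiment 3 under ATRA, against 8.30 (siRNA) and 8.39 (scrambled) under DMSO. Both lay above DMSO on every ATRA array, by 0.27 ± 0.25 and 0.24 ± 0.26 (SE). Without experiment 3 these differences were 0.18 and 0.12, and from experiment 3 alone 0.36 and 0.37. The third, 204778_x_at, read 7.63 (siRNA) and 7.62 (scrambled) in experiment 1 and 6.79 (siRNA) and 6.82 (scrambled) in experiment 3 under ATRA, against 7.66 (siRNA) and 7.59 (scrambled) under DMSO. It did not separate in experiment 1 and was lower in experiment 3, against the direction of the other two. An x in such a name marks a probe set whose probes may bind other transcripts. Its part in this disagreement was not tested.

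**Figure D2:**
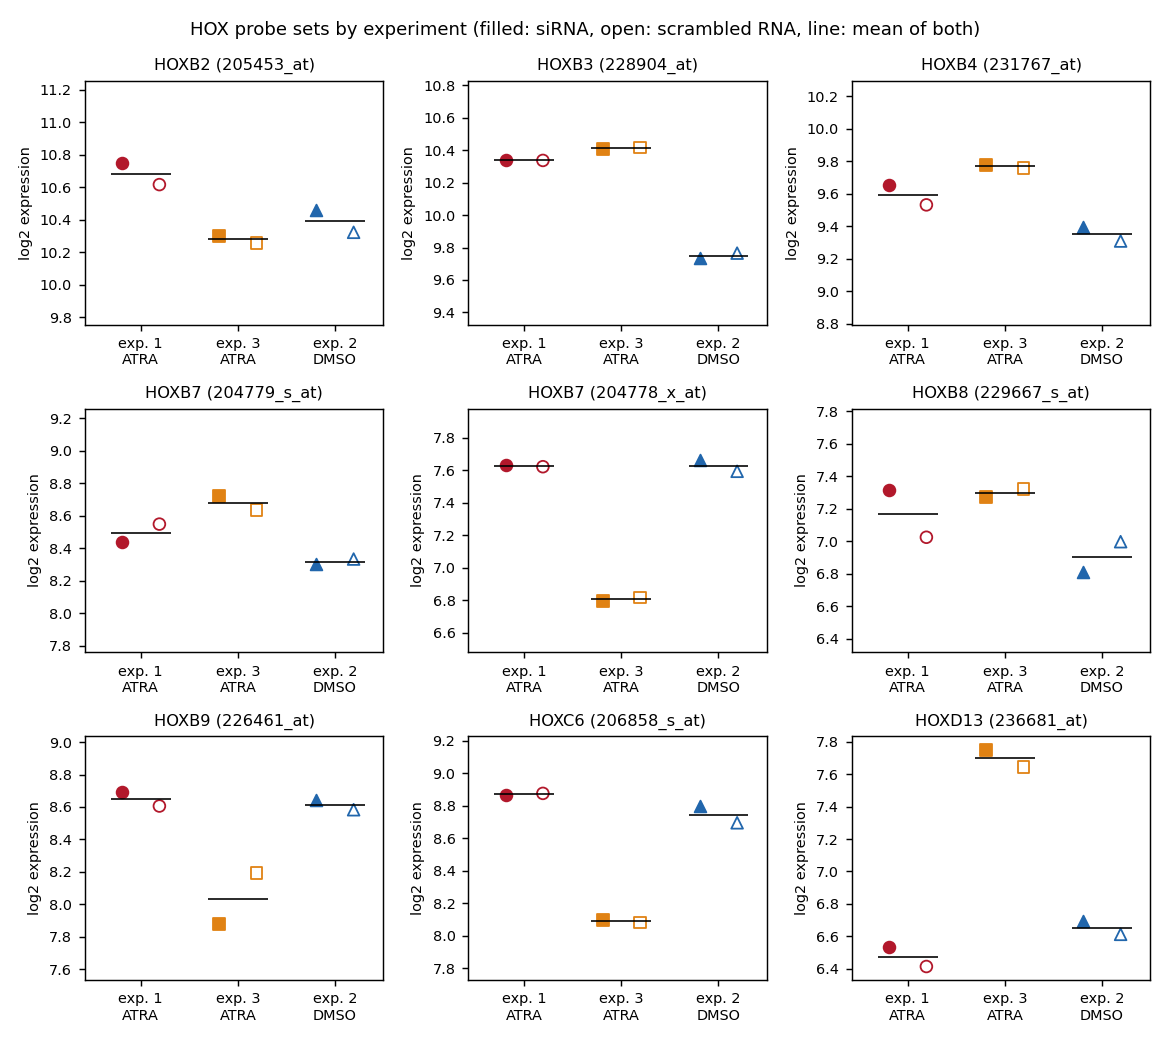
The 9 panels show log2 expression (y axis, each panel spanning the same height) by experiment (x axis, ATRA experiments left of the DMSO experiment) for HOXB2, HOXB3, HOXB4, HOXB7, HOXB8, HOXB9, HOXC6 and HOXD13, with siRNA filled, scrambled RNA open and the mean as a line. HOXB3 stood 0.59 and 0.66 above DMSO in the 2 ATRA experiments, while HOXB7 (204778_x_at), HOXB9, HOXC6 and HOXD13 stood apart in experiment 3 alone.

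HOXB5, which marks long-term stem cells in mouse bone marrow, had a probe set in the middle of the range and another that was dim. So did HOXB6, which is active in erythroid progenitors. HOXB5 (205601_s_at) read 6.96 (siRNA) and 6.94 (scrambled) in experiment 1 and 7.01 (siRNA) and 7.14 (scrambled) in experiment 3 under ATRA, against 6.85 (siRNA) and 6.95 (scrambled) under DMSO. HOXB6 (205366_s_at) read 6.58 (siRNA) and 6.49 (scrambled) in experiment 1 and 6.81 (siRNA) and 7.03 (scrambled) in experiment 3 under ATRA, against 6.43 (siRNA) and 6.53 (scrambled) under DMSO. In both, the scrambled array of experiment 1 lay between the DMSO arrays, and experiment 3 gave the highest values. The dim probe sets were instead lowest in experiment 3. HOXB5 (205600_x_at) averaged 5.59 in experiment 3, against 5.84 in experiment 1 and 5.85 under DMSO, and its groups overlapped. HOXB6 (205365_at) averaged 4.49, against 4.64 and 4.67, and was lower on all ATRA arrays. The probe sets of each gene thus disagree in experiment 3.

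Counted over all clusters, 5 of the 22 HOX probe sets at or above the median (22.7%) were higher on all ATRA arrays than on both DMSO arrays, and all 5 were HOXB probe sets. The background among probe sets of that level was 16.6%. Another 2 (9.09%), HOXC5 and HOXC13, were lower on all ATRA arrays, against 13.6%. Over all 44, 12 (27.3%) did not overlap between treatments, against 22.9% of all probe sets. Of these, 6 were higher (13.6% against 11.1%) and 6 lower (13.6% against 11.8%), shares near the background. The median ATRA minus DMSO difference was -0.05 over the 44 and -0.02 over all probe sets, and over the 19 HOXB probe sets it was -0.01, with 9 higher and 10 lower.

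**Figure D3:**
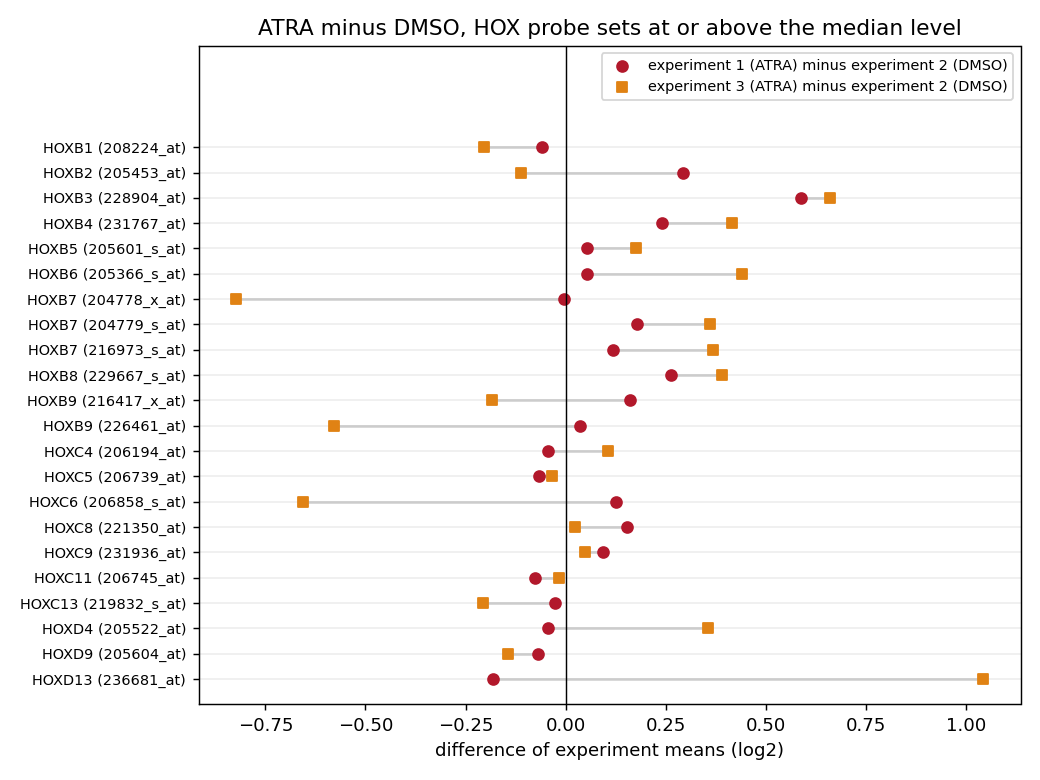
The plot gives the difference of experiment means (x axis, log2) for the 22 HOX probe sets at or above the median (y axis), as experiment 1 (ATRA) minus experiment 2 (DMSO) in circles and experiment 3 (ATRA) minus experiment 2 (DMSO) in squares. HOXB3 has both symbols beyond 0.5, and for HOXB2, HOXC6 and HOXD13, among others, they fall on opposite sides of 0.

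At an unadjusted p below 0.05, 2 of the 44 HOX probe sets (4.55%) differed between ATRA and DMSO, against 0.835% of all, and both were dim. HOXA2 read 3.57 (siRNA) and 3.57 (scrambled) in experiment 1 and 3.79 (siRNA) and 3.44 (scrambled) in experiment 3 under ATRA, against 3.42 (siRNA) and 3.25 (scrambled) under DMSO. The lowest ATRA array was just above the higher DMSO array, with a difference of 0.25 ± 0.07 (SE; limma, unadjusted p = 0.0323, adjusted p = 0.995). HOXD12, a limb gene, read 3.72 (siRNA) and 4.19 (scrambled) in experiment 1 and 3.89 (siRNA) and 4.01 (scrambled) in experiment 3 under ATRA, against 4.34 (siRNA) and 3.99 (scrambled) under DMSO. Its groups overlapped, with a difference of -0.21 ± 0.06 (SE; limma, unadjusted p = 0.0451, adjusted p = 0.995). At these levels a difference is one of signal alone.

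In the HOXC cluster, HOXC4 and HOXC5 act in the neck and upper trunk. HOXC4 read 7.15 (siRNA) and 7.01 (scrambled) in experiment 1 and 7.17 (siRNA) and 7.29 (scrambled) in experiment 3 under ATRA, against 7.10 (siRNA) and 7.15 (scrambled) under DMSO. HOXC5 read 7.24 (siRNA) and 7.27 (scrambled) in experiment 1 and 7.26 (siRNA) and 7.31 (scrambled) in experiment 3 under ATRA, against 7.32 (siRNA) and 7.31 (scrambled) under DMSO. HOXC5 was lower on every ATRA array, but the gap between the nearest arrays was smaller than the rounding and the mean difference -0.05. HOXC4 overlapped.

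HOXC8 and HOXC9, which set the identity of thoracic vertebrae and motor neurons, gave the following values. HOXC8 read 6.10 (siRNA) and 6.09 (scrambled) in experiment 1 and 5.95 (siRNA) and 5.98 (scrambled) in experiment 3 under ATRA, against 5.87 (siRNA) and 6.01 (scrambled) under DMSO. HOXC9 read 7.39 (siRNA) and 7.38 (scrambled) in experiment 1 and 7.38 (siRNA) and 7.30 (scrambled) in experiment 3 under ATRA, against 7.27 (siRNA) and 7.31 (scrambled) under DMSO. Both overlapped between the treatments.

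HOXC11 and HOXC13, which are fusion partners of NUP98 in rare myeloid leukaemias, also lay above the median. HOXC11 read 6.96 (siRNA) and 6.78 (scrambled) in experiment 1 and 6.96 (siRNA) and 6.89 (scrambled) in experiment 3 under ATRA, against 6.89 (siRNA) and 6.99 (scrambled) under DMSO. HOXC13 read 6.84 (siRNA) and 6.84 (scrambled) in experiment 1 and 6.65 (siRNA) and 6.67 (scrambled) in experiment 3 under ATRA, against 6.84 (siRNA) and 6.89 (scrambled) under DMSO. HOXC11 overlapped, and the gap of HOXC13 came almost wholly from experiment 3 (-0.03 from experiment 1, -0.21 from experiment 3).

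HOXC6, a trunk and mammary gland gene, was the only HOXC probe set in the upper quartile. It read 8.87 (siRNA) and 8.88 (scrambled) in experiment 1 and 8.10 (siRNA) and 8.08 (scrambled) in experiment 3 under ATRA, against 8.80 (siRNA) and 8.70 (scrambled) under DMSO. HOXB9, which shapes the thoracic skeleton, had the same order. Its probe set 226461_at read 8.69 (siRNA) and 8.61 (scrambled) in experiment 1 and 7.88 (siRNA) and 8.19 (scrambled) in experiment 3 under ATRA, against 8.65 (siRNA) and 8.58 (scrambled) under DMSO. In both, experiment 3 was low and experiment 1 was as high as DMSO. The ATRA minus DMSO difference of HOXC6 was 0.13 from experiment 1 and -0.66 from experiment 3, and that of HOXB9 0.03 and -0.58. The second HOXB9 probe set, 216417_x_at, read 6.87 (siRNA) and 6.87 (scrambled) in experiment 1 and 6.61 (siRNA) and 6.44 (scrambled) in experiment 3 under ATRA, against 6.70 (siRNA) and 6.72 (scrambled) under DMSO. It was likewise lowest in experiment 3.

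In the HOXD cluster, HOXD13, which patterns the digits and is also a NUP98 partner, was the one that differed most between experiments. Its probe set 236681_at read 6.53 (siRNA) and 6.41 (scrambled) in experiment 1 and 7.75 (siRNA) and 7.64 (scrambled) in experiment 3 under ATRA, against 6.70 (siRNA) and 6.61 (scrambled) under DMSO. Experiment 3 was high, and experiment 1 was below DMSO, with differences of 1.04 and -0.18. The other 2 HOXD13 probe sets were dim and did not show this gap, at 0.18 and -0.13 from experiment 3.

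HOXD4, a gene of the hindbrain and neck with a retinoid response element in mice, read 6.01 (siRNA) and 6.16 (scrambled) in experiment 1 and 6.44 (siRNA) and 6.54 (scrambled) in experiment 3 under ATRA, against 6.04 (siRNA) and 6.23 (scrambled) under DMSO at its probe set 205522_at. HOXD9, a limb and trunk gene, read 6.24 (siRNA) and 6.40 (scrambled) in experiment 1 and 6.36 (siRNA) and 6.13 (scrambled) in experiment 3 under ATRA, against 6.43 (siRNA) and 6.35 (scrambled) under DMSO at its probe set 205604_at. At 205522_at HOXD4 was high in experiment 3 alone (0.36 above DMSO), while its dim probe set 1552337_s_at differed by -0.28 there, so the 2 disagree. HOXD9 overlapped throughout. The remaining 12 HOXD probe sets, among them all those of HOXD1, HOXD8, HOXD10, HOXD11 and HOXD12, were dim, as were both of HOXB13 and those of HOXC10 and HOXC12.

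Over all 44, experiment 3 separated from the other 4 arrays at 22 HOX probe sets (50%), against 45.1% of all probe sets. By 0.5 or more it did so at 5 (11.4%), against 13.6%: HOXD13 was higher by 1.13, and HOXB3 (208414_s_at), HOXB7 (204778_x_at), HOXB9 and HOXC6 fell by 0.54, 0.82, 0.60 and 0.72. Experiment 3 against experiment 2 alone called 12 of 44 (27.3%), against 25.4% of all probe sets, so HOX probe sets were called about as often as others. The summed linear signal of the 8 erythroid markers was 21990 to 22090 in experiment 3 and 19350 to 20270 in the other 2 (experiments 1 and 2). TFRC, the transferrin receptor, averaged 13.66 in experiment 3, against 13.18 in experiment 1 and 13.18 in experiment 2. TAL1 and LYL1 were also higher there. TAL1 averaged 9.97 in experiment 3, against 9.45 in experiment 1 and 9.57 in experiment 2, and LYL1 averaged 10.32, against 9.66 and 9.66. EPOR hardly differed (8.05 against 8.01 and 7.99), and KLF1 lay between (8.94 against 8.79 and 9.01). The other erythroid markers, GATA1, HBZ and HBE1, were lower in experiment 3. GATA1 averaged 8.54 there, against 8.94 in experiment 1 and 9.11 in experiment 2. The embryonic globin gene HBZ averaged 11.78 in experiment 3, against 12.07 in experiment 1 and 12.25 in experiment 2, and HBE1 averaged 11.07, against 11.65 and 11.54. The summed signal of the 3 epithelial markers was 1276 to 1337 in experiment 3 and 1429 to 1536 in the other 2. The part of RNA quality and of these markers in the HOX values of experiment 3 was not tested.

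The second question was whether the siRNA changed HOX genes. No HOX probe set passed the test: 0 of 44 were called (limma with Benjamini-Hochberg adjustment, smallest adjusted p = 1), against 0% of all probe sets, and 0 had an unadjusted p below 0.05, against 1.2%. The differences ran from -0.15 to 0.18, with 22 higher and 22 lower, and their median was 0.00 as over all probe sets. With the experiment as a block, which pairs siRNA with scrambled RNA inside every experiment, 0 of 44 were called against 0.00183%, the 1 probe set called being that of PRAME. In that paired fit 0 of 44 had an unadjusted p below 0.05, against 5.27%.

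The siRNA minus scrambled difference had the same sign in all 3 experiments at 8 of 44 HOX probe sets (18.2%), against 23.6% of all. HOXB2 was higher with siRNA by 0.13, 0.14 and 0.04 in experiments 1, 2 and 3, a mean of 0.10 ± 0.05 (SE; paired limma fit, 95% interval -0.01 to 0.22; unadjusted p = 0.061, adjusted p = 0.872). HOXB4 was higher by 0.12, 0.09 and 0.02, a mean of 0.08 ± 0.05 (SE; adjusted p = 0.872 in the paired limma fit). HOXD4 (205522_at) was lower with siRNA each time, at -0.15, -0.19 and -0.10, a mean of -0.15 ± 0.07 (SE; adjusted p = 0.872 in the paired limma fit). The rest of the 8 were HOXD13 (236681_at), HOXA2 and a dim HOXB13 probe set, higher with siRNA, and dim probe sets of HOXD10 and HOXB1, lower with siRNA. HOXB3 (228904_at), the gene with the widest ATRA gap, differed by -0.01 ± 0.05 (SE; 95% interval -0.12 to 0.10 in the paired limma fit).

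**Figure D4:**
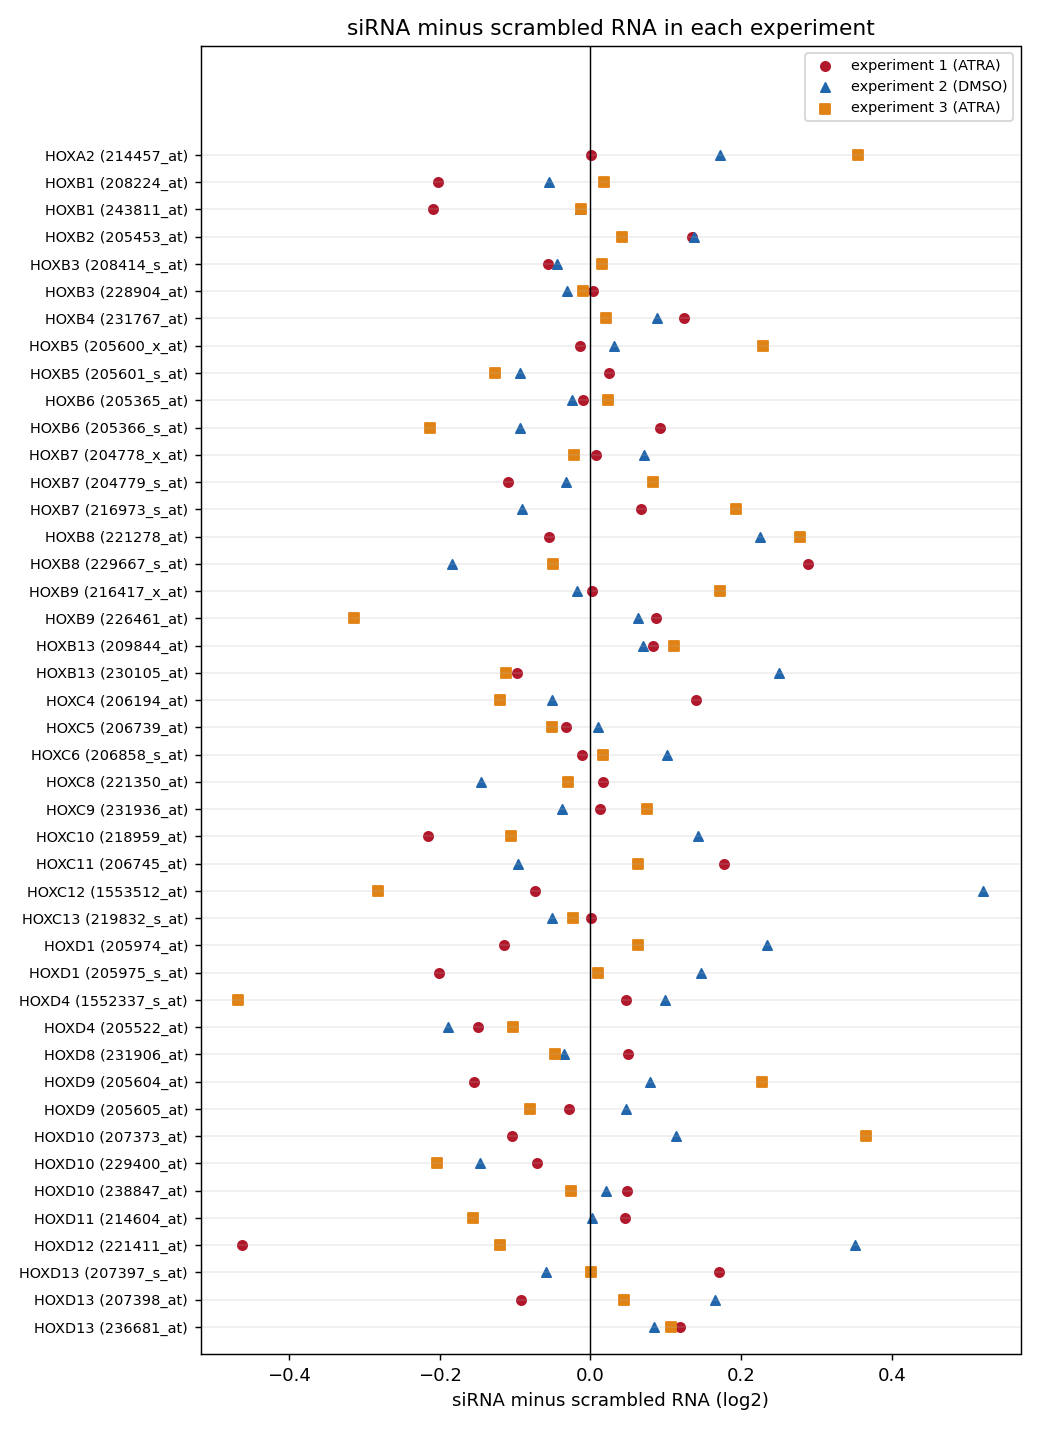
The plot gives siRNA minus scrambled RNA (x axis, log2) for the 44 HOX probe sets (y axis) in each of the 3 experiments. The symbols scatter on both sides of 0, and the widest spreads belong to dim probe sets such as HOXC12 and HOXD12.

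For siRNA within ATRA, 0 of 44 were called against 0% and 0 at an unadjusted p below 0.05 against 0.936%. In the paired fit 0 of 44 were called against 0%, and 1 (2.27%) had an unadjusted p below 0.05, against 4.89%. It was the dim HOXD12 (paired limma fit, unadjusted p = 0.04003, adjusted p = 0.865). The siRNA effect under ATRA minus that under DMSO was called at 0 of 44 against 0%. At an unadjusted p below 0.05 there were 2 of 44 (4.55%) against 1.29%, both dim. HOXC12, of the 5′ end of its cluster, read 5.67 (siRNA) and 5.74 (scrambled) in experiment 1 and 5.38 (siRNA) and 5.67 (scrambled) in experiment 3 under ATRA, against 5.96 (siRNA) and 5.44 (scrambled) under DMSO. The single DMSO pair ran opposite to both ATRA pairs, which gave -0.70 ± 0.22 (SE; limma, unadjusted p = 0.0375, adjusted p = 1). HOXD12, with its values above, had the same pattern, at -0.64 ± 0.18 (SE; limma, unadjusted p = 0.0257, adjusted p = 1).

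The partners and regulators of HOX genes were read from lists of named genes, at the probe set with the highest mean of each gene. This choice raises the number at or above the median, which is taken over all probe sets. No gene of these lists passed the adjusted threshold in the siRNA, within-ATRA, ATRA or difference-of-effects test. Of 10 measured TALE cofactors, 7 lay at or above the median, and 5 were higher and 5 lower under ATRA, with a median of 0.02. MEIS2 was the only 1 of the 10 above DMSO on all ATRA arrays, a share near the 11.1% of all probe sets. It read 9.24 (siRNA) and 9.23 (scrambled) in experiment 1 and 9.27 (siRNA) and 9.24 (scrambled) in experiment 3 under ATRA, against 9.06 (siRNA) and 9.07 (scrambled) under DMSO, a difference of 0.18 ± 0.24 (SE). It was chosen after its values were seen, and among TALE genes with the smallest ATRA p-values MEIS1 was dim, at 0.19 ± 0.09 (SE; limma, unadjusted p = 0.136).

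The 3 CDX genes, which switch on HOX clusters in the embryo, differed by -0.16 to 0.10 between ATRA and DMSO, and all overlapped. The list for the KMT2A complex and its cofactors also held other chromatin enzymes, such as KDM6A, KDM6B and KAT6A. All 19 genes of this list lay at or above the median. Of these, 11 were higher and 8 lower under ATRA, with a median of 0.05, where 45.7% of all probe sets, dim ones included, were higher. Without experiment 3, KMT2B, MEN1, PSIP1, WDR5, DOT1L, MLLT1 and MLLT3 averaged lower in experiment 1 than under DMSO, and the others higher. In experiment 3, KMT2B, RBBP5, DPY30, DOT1L, MLLT3, AFF4 and KAT6A averaged lower, and the others higher. On all ATRA arrays 5 of 19 lay above DMSO, among them KMT2A itself, against 16.6% of all probe sets at or above the median. KDM6A, which removes the Polycomb mark, had the smallest p of that list. It read 8.39 (siRNA) and 8.40 (scrambled) in experiment 1 and 8.61 (siRNA) and 8.55 (scrambled) in experiment 3 under ATRA, against 7.95 (siRNA) and 8.15 (scrambled) under DMSO, a difference of 0.44 ± 0.24 (SE; limma, unadjusted p = 0.169).

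Of 14 measured Polycomb genes, all at or above the median, 12 were higher and 2 lower under ATRA, with a median of 0.11. Of all probe sets, dim ones included, 45.7% were higher, and this share was not taken at the level of the Polycomb genes. Without experiment 3, RBBP7, PHF19, RING1, CBX2, CBX7 and PHC2 averaged lower in experiment 1 than under DMSO, and the others higher. In experiment 3 all but EED averaged higher than under DMSO. Only 2 of the 14 lay above DMSO on all ATRA arrays, where 16.6% of all probe sets at or above the median did. RBBP4, a histone-binding subunit, had the smallest p of them (0.26 ± 0.24, SE; limma, unadjusted p = 0.349), and the catalytic subunit EZH2 differed by 0.31 ± 0.38 (SE). EZH2 read 10.47 (siRNA) and 10.50 (scrambled) in experiment 1 and 11.15 (siRNA) and 11.03 (scrambled) in experiment 3 under ATRA, against 10.39 (siRNA) and 10.57 (scrambled) under DMSO, so its gap came from experiment 3. Of the 5 other regulators, 4 were higher and 1 lower under ATRA, with a median of 0.03. With siRNA, 7 of 10 TALE genes, 5 of 19 on the KMT2A list and 5 of 14 Polycomb genes were higher, against 52.2% of all probe sets. The medians were 0.03, -0.02 and -0.02. EZH1, an alternative catalytic subunit of Polycomb, was lower with siRNA in all 3 experiments, by a mean of -0.14 ± 0.05 (SE; paired limma fit, unadjusted p = 0.0345, adjusted p = 0.872). It was the only 1 of the 14 with an unadjusted p below 0.05 in that fit, against 5.27% of all probe sets. The same sign in all 3 experiments occurred at 23.6% of all.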

How the data were processed

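The deposited values are log2 expression from 6 Affymetrix HG-U133 Plus 2.0 arrays, normalized by the authors with RMA in BRB-ArrayTools, per the labels and the series' design text. Software versions and settings are not given there. Per the labels' protocols, TRIzol RNA was labelled from the 3′ end. Of 54675 probe sets, 62 were controls and were left out. The platform annotation named 1 gene for 41091 probe sets, several for 1801 and none for 11721.

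All 54613 other probe sets were tested in R 4.3.3 with limma 3.58.1, using lmFit and a trended eBayes, and p-values were adjusted over all of them by the Benjamini-Hochberg method at a threshold of 0.05. For siRNA, the 6 arrays were fitted with treatment as a covariate. A model with 4 groups gave the tests within ATRA and of how the siRNA effect differed by treatment, and in it the lone array of a DMSO group borrows the spread of the ATRA groups. For ATRA, the means of 3 experiments were compared. SEs are moderated over all probe sets. Each test was checked on simulated data with independent noise on every array and no difference between experiments. That check does not show how the tests fare where an experiment stands apart. The members and lists were chosen with earlier results of these data known. Members at or above the median level or with an unadjusted p below 0.05 were named, with up to 3 genes by smallest p from each list.

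Arrays with the same experiment number were paired, since the labels call the experiments independent. Their deviations from the mean of their arm (siRNA or scrambled RNA) had correlations of 0.703, 0.772 and 0.879. Across experiments 1 and 2 these were 0.530 and 0.594, and with experiment 3 they were -0.785 to -0.693. Deviations within an arm cancel and include the difference between ATRA and DMSO, so these values alone do not show the pairing. Alternatives were the experiment as a block, other scalings, probe set choices, a level filter, no trend, no covariate, and arrays or experiments left out.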

Additional observations from a re-analysis of the deposited data

How the results depend on the processing

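Of 39 counts of HOX probe sets recomputed under an alternative, 37 stayed at 0, among them, for the siRNA, within-ATRA and difference-of-effects results, the replicate block (0 of 44 each) and each array or experiment left out in them (0 to 0). The count for ATRA against DMSO became 1 with experiment 1 against experiment 2 alone and 12 with experiment 3 against experiment 2 alone. Of 251 values of single probe sets, 9 changed sign. The ATRA difference of HOXB2 was -0.11 with experiment 3 alone, and those of HOXB9, HOXC6 and HOXD13 were 0.035, 0.13 and -0.18 with experiment 1 alone. With single arrays left out, the siRNA difference ran from -0.020 to 0.24 for HOXB2, from -0.038 to 0.0077 for HOXB3 and from -0.25 to 0.45 for HOXD13, and leaving out 1 array of a pair makes the experiments unequal between the arms. Another 11 values kept their sign and passed the threshold with 1 ATRA experiment against experiment 2. Otherwise the cause was not tested. The 1 to 3 residual degrees of freedom and the single DMSO experiment left wide intervals. At no probe set, dim or not, was a level above background shown.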
